A study of Homo sapiens with 18 samples.

Results

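Spheroids of MMP14-KO cells were compared after 48 h inside a collagen hydrogel with spheroids of the same genotype taken from the hanging droplets in which they form, 3 libraries against 3. These 6 libraries were taken, by their genotype and treatment labels, from a series of 18 polyA RNA-seq libraries of MDA-MB-231, an established human triple-negative breast cancer line. The remaining 12 libraries hold MMP14-KO spheroids at 24 h in collagen, and the Wildtype line in droplets, at 24 h and at 48 h, 3 libraries each. All groups were made from the same line with the same cell input, and the labels name no other allele or drug. Collagen gels were cut up and dissolved with collagenase at 37 °C before RNA was isolated, whereas droplet spheroids were only washed off the plate. The gel, the digestion and the extra time in culture therefore cannot be told apart in any comparison of 48 h with droplets below, while 24 h and 48 h samples shared the gel and the digestion. The labels do not say how MMP14 was disrupted, whether the MMP14-KO line is a clone or a pool, or whether replicates are separate cultures, so the p-values measure only the spread between these libraries, which may be technical.

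MMP14 encodes a metalloproteinase that is anchored in the plasma membrane and cuts fibrillar collagen at the cell surface, and tumour cells use it to clear a path through dense collagen. When it is lacking, cells can still move by squeezing through pores, which depends on contractility and on how adhesions are coupled to the cytoskeleton. A cell that goes from a compact spheroid hanging in medium to a stiff fibrous gel meets new ligands for integrins and a new mechanical load, and the transcription factors AP-1, SRF with its cofactor MRTF, and TEAD with YAP and TAZ are known to respond to such cues.

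MMP14 itself did not change detectably in collagen in the MMP14-KO line. It lies at chr14:22836557-22849027, plus strand (GRCh38), and its level was 159, 149 and 156 CPM in droplets, 166, 151 and 143 CPM at 24 h and 163, 143 and 138 CPM at 48 h. CPM are counts scaled to a common library size with TMM factors. The droplet and 48 h groups overlapped (log2 fold change -0.06, SE 0.083, edgeR adjusted p = 0.566, from edgeR's quasi-likelihood test with Benjamini-Hochberg adjustment, which stands behind every adjusted p below). Wildtype spheroids held 1956, 1928 and 2249.7 CPM in droplets, 1976, 1767 and 1713 CPM at 24 h and 1550.1, 1506 and 1284 CPM at 48 h, so every MMP14-KO library was below every Wildtype library. The labels are thus matched by the transcript, although mRNA is still made from the locus and its level says nothing of protein.

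The 6 libraries held 19819401 to 29088883 counts, and log2 CPM correlated across genes at 0.987 to 0.991 within a group and 0.968 to 0.974 between the groups. Most of the line's own markers were present: of 14 basal and MDA-MB-231 markers 11 exceeded 1 CPM in all 6 libraries, with VIM averaging 2467 ± 218 CPM in droplet spheroids and 3737 ± 165 CPM after 48 h (SD, n = 3). The basal keratins in the list did not: KRT5 had 0 to 1 counts, KRT14 2 to 15 counts and KRT17 0.047 to 1.74 CPM. Some markers of other cell types were present too. Of 15 luminal markers 12 exceeded 1 CPM in all 6 libraries, with KRT8 at 441 to 508 CPM. The others were ESR1 with 1 to 3 counts, PGR with 0 and FOXA1 at 0.117 to 0.595 CPM. Of 14 leukocyte markers 5 exceeded 1 CPM in all 6 libraries, with CD68 at 86.3 to 111 CPM, and another 5 had no read in any of the 6. Of 10 fibroblast markers 3 exceeded 1 CPM in all 6, and of 10 endothelial markers 4 did, with ESAM at 75.8 to 143 CPM. The endothelial markers VWF and CDH5 had only 1 to 7 and 0 to 4 counts. Mitochondrially encoded transcripts took 0.971 to 1.74% of counts in droplets and 2.88 to 3.68% at 48 h, and long noncoding RNA took 0.928 to 0.954% and 1.13 to 1.22%. Both shares differed between the groups without overlap, droplet replicate 2 had the lowest mitochondrial share, and the part of these differences in the results below was not tested.

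Nearly as many genes fell as rose, and for each of them fewer cells making a transcript and less transcript per cell cannot be told apart in bulk RNA. Of 17030 genes tested, 4399 were higher at 48 h (25.8%) and 4018 lower (23.6%) at an adjusted p under 0.05, and 8613 did not pass. At a change of at least 2-fold, 912 were higher (5.36%) and 557 lower (3.27%). The median log2 fold change over all tested genes was 0.02, beside which the medians of gene groups can be read. Counts of list members below can be read beside the shares of all tested genes, 25.8% higher and 23.6% lower. Protein-coding genes were balanced at 2-fold, with 462 higher and 477 lower of 13609. Long noncoding genes leaned up, with 344 higher and 48 lower of 2169 and a median of 0.32, and pseudogenes did too, with 41 higher and 11 lower of 616. Scarce genes held many of the 2-fold changes: 406 of the rises and 190 of the falls had a mean under 1 CPM, against 41 and 23 with a mean over 100 CPM.

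The largest rises and falls are given among genes with a standard symbol that reach 5 CPM in the higher group and whose groups do not overlap. The rises were in immediate-early transcription factors, the YAP target CCN1 and a set of secreted or signalling genes that are barely made in droplets. FOSB, an AP-1 subunit at chr19:45467995-45475179, plus strand, had 1.15, 1.02 and 1.2 CPM in droplets and 123, 124 and 112 CPM at 48 h (log2 fold change 6.74, SE 0.163, edgeR adjusted p = 1.93e-14), a change of 107-fold. FOS, its better known paralog at chr14:75278774-75282230, plus strand, had 8.36, 9.31 and 7.65 CPM in droplets and 457, 473 and 386 CPM at 48 h (log2 fold change 5.7, SE 0.129, edgeR adjusted p = 8e-15). No droplet library came near any 48 h library for either gene, though the rule that chose them already required no overlap. EDN1, the precursor of the vasoconstrictor peptide endothelin-1, had 2.62, 2.52 and 2.15 CPM in droplets and 25.7, 26.5 and 32.3 CPM at 48 h (log2 fold change 3.54, SE 0.178, edgeR adjusted p = 1.28e-10). AOX1, an aldehyde oxidase, had 7.29, 8.05 and 8.16 CPM in droplets and 51, 61.6 and 63.4 CPM at 48 h (log2 fold change 2.9, SE 0.0976, edgeR adjusted p = 8e-15). CCN1, a matrix-associated YAP target at chr1:85580761-85583962, plus strand, had 155, 149.7 and 134 CPM in droplets and 1156, 1012 and 1305 CPM at 48 h (log2 fold change 2.98, SE 0.119, edgeR adjusted p = 1.61e-11). The lowest 48 h library was several times the highest droplet library for all 3 of these genes. KRTAP2-3, a keratin-associated protein gene with near-identical copies that reads could be split between, rose from 0.0793, 0.385 and 0.341 CPM to 8.32, 8.12 and 8.23 CPM (log2 fold change 4.87, SE 0.284, edgeR adjusted p = 5.06e-11). PDE1C, a calmodulin-dependent phosphodiesterase gene, rose by a log2 fold change of 3.3, KISS1, the precursor of kisspeptin, by 2.94, ADTRP by 2.7 and ADAMTS6, a secreted protease gene, by 2.67. PDE1C and FOSB overlap a gene on the opposite strand, as do many genes named below, and whether counting used strand is not given in the sources used here, so reads of such a partner could be among theirs.

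The largest falls were in secretory, inflammatory and metabolic genes. MUC5B, a gel-forming mucin gene that overlaps its own antisense RNA, had 18.8, 26.9 and 19.9 CPM in droplets and 0.937, 1.6 and 1.04 CPM at 48 h (log2 fold change -4.2, SE 0.277, edgeR adjusted p = 1.96e-09). LEFTY1, a secreted inhibitor of Nodal signalling, had 14.3, 18.2 and 12.3 CPM in droplets and 1.05, 0.892 and 0.496 CPM at 48 h (log2 fold change -4.16, SE 0.327, edgeR adjusted p = 1.23e-08). S100P, a small calcium-binding protein gene, had 8.29, 9.24 and 9.56 CPM in droplets and 1.05, 0.892 and 0.842 CPM at 48 h (log2 fold change -3.26, SE 0.253, edgeR adjusted p = 9.2e-10). All 3 fell to about 1 CPM. CXCL10, an interferon-induced chemokine, had 26, 27.9 and 19.6 CPM in droplets and 3.24, 3.48 and 2.43 CPM at 48 h (log2 fold change -3.0, SE 0.336, edgeR adjusted p = 6.36e-06). VCAM1, a leukocyte adhesion molecule, had 9.63, 10.2 and 11.5 CPM in droplets and 1.72, 1.78 and 1.19 CPM at 48 h (log2 fold change -2.72, SE 0.3, edgeR adjusted p = 6.31e-07). PDK4, the kinase that switches off pyruvate dehydrogenase, had 87, 90.7 and 77.4 CPM in droplets and 19.2, 16.1 and 17.7 CPM at 48 h (log2 fold change -2.26, SE 0.0978, edgeR adjusted p = 4.16e-13). Absence of overlap between the groups was part of the rule that chose the largest rises and falls. Many genes named below were chosen for the size of a change that passed, which favours groups that do not overlap. The share of all tested genes without overlap is not given, so absence of overlap only describes the values of the genes named. CHI3L2 changed by -2.68 on the log2 scale, EBI3, a cytokine subunit, by -2.53, F13A1, a transglutaminase, by -2.45, LTB, a membrane-anchored cytokine of the TNF family, by -2.44, APOC1 by -2.43 and SPTB by -2.27.

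**Figure D1:**
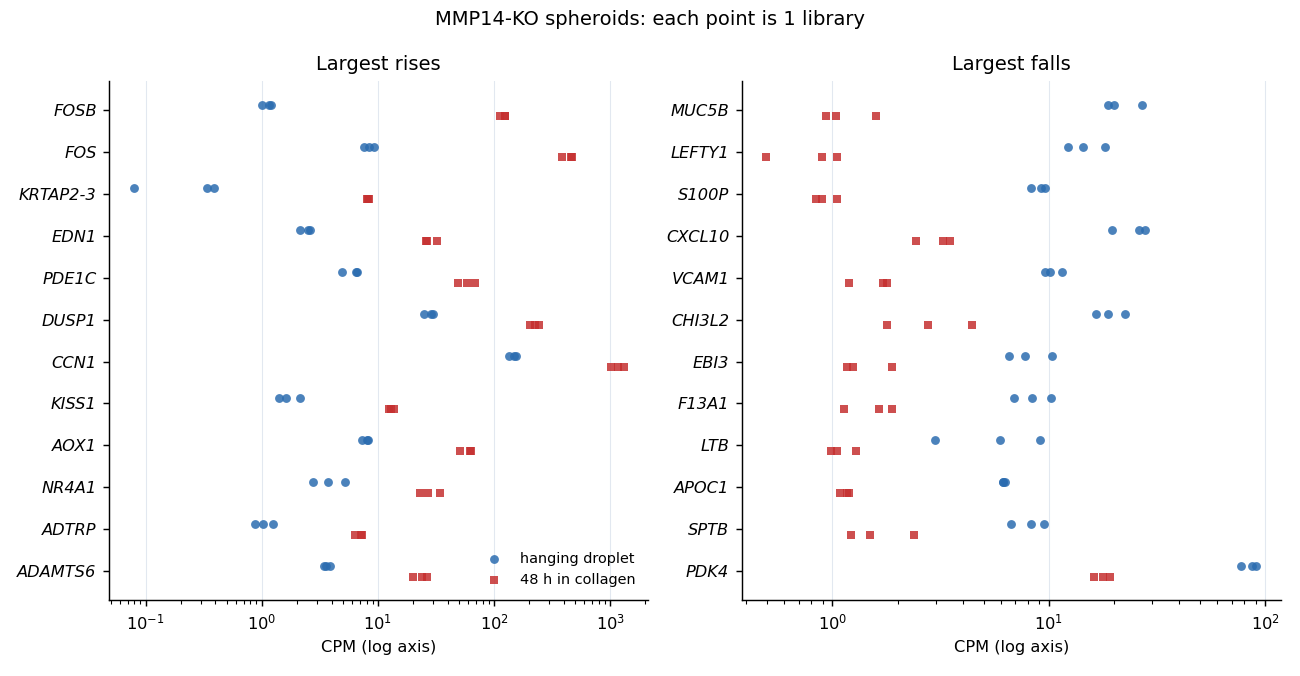
Expression in CPM (log axis) of the 12 genes with the largest rises (left) and the 12 with the largest falls (right) in MMP14-KO spheroids. Each point is 1 library, 3 in hanging droplets (circles) and 3 after 48 h in collagen (squares), and the genes were chosen among those whose groups do not overlap.

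Immediate-early genes, which are switched on within minutes of a stimulus and include genes known to respond to tissue dissociation, were mostly higher at 48 h. Of 33 tested members 23 rose and 4 fell, against 25.8% and 23.6% of all tested genes, with a median log2 fold change of 0.63. EGR1, a zinc-finger factor, had 24.9, 23.9 and 25 CPM in droplets and 129, 184 and 144 CPM at 48 h (log2 fold change 2.63, SE 0.127, edgeR adjusted p = 2.96e-10). ATF3, a stress-induced factor of the ATF family, had 8.92, 9.1 and 8.3 CPM in droplets and 52, 41 and 47.9 CPM at 48 h (log2 fold change 2.42, SE 0.141, edgeR adjusted p = 1.96e-09). JUNB, another AP-1 subunit, had 119, 127 and 112 CPM in droplets and 236, 246 and 205 CPM at 48 h (log2 fold change 0.94, SE 0.108, edgeR adjusted p = 2.62e-06). In each of the 3 the lowest 48 h library exceeded the highest droplet library. DUSP1, a phosphatase that inactivates stress kinases, rose by 3.01, NR4A1, an orphan nuclear receptor, by 2.87 and ZFP36, which promotes decay of AU-rich mRNAs, by 2.51 on the log2 scale. The 4 that fell were EGR3, NR4A3, DUSP5 and BTG1, of which EGR3 had 6.78, 5.95 and 6.69 CPM in droplets and 3.63, 3.76 and 3.82 CPM at 48 h (log2 fold change -0.79, SE 0.153, edgeR adjusted p = 0.000178). Here and below, members outside the rule for named genes are named, without values, only because few passed against the direction of their list, which was seen from their values. Collagenase treatment was part of every 48 h sample and of no droplet sample, so the digestion cannot be told apart from the gel for these genes. FOS and EGR1 were higher still at 24 h, at 749.8, 860.2 and 927 CPM for FOS and 426, 349 and 319 CPM for EGR1, in samples that went through the same digestion.

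The promoters of EGR1 and DUSP1 are shown because they carry the sequence elements through which these genes are known to be induced. Both windows run from 250 bases before to 50 bases after the start of the gene (RefSeq, GRCh38.p14), and matches to the searched elements, on either strand, are in capitals. EGR1 (chr5:138465229-138465528, plus strand) held 2 CArG boxes, the element bound by SRF, starting 105 and 83 bases before the start.
EGR1: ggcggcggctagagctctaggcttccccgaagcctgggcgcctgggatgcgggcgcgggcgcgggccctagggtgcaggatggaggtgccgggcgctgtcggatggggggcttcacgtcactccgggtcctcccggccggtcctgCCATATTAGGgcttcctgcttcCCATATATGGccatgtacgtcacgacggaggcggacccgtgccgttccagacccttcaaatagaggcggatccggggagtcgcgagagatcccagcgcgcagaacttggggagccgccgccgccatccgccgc
DUSP1 (chr5:172771146-172771445, minus strand) held 1 cyclic AMP response element, TGACGTCA, starting 125 bases before the start.
DUSP1: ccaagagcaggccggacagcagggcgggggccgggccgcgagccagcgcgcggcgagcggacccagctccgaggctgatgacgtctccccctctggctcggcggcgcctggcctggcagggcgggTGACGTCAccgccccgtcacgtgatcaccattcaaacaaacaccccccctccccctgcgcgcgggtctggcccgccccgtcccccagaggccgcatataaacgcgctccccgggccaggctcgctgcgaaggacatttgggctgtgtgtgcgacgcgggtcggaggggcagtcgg
Of the 26 list members with an entry in the promoter table, 1 held a CArG box, 2 held TGACGTCA and 1 held the AP-1 site TGACTCA. Of all 27305 promoters 1.29%, 1.98% and 4.92% held them, and of the 11816 promoters of tested genes 1.07%, 3.17% and 3.43%. These shares are descriptions of short windows.

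Targets of YAP and TAZ, the coactivators that enter the nucleus when cells spread and pull on a stiff substrate, moved up together. Of 28 tested members 21 rose and 2 fell (NUAK2 and AMOTL1), and 10 of the rises were at least 2-fold, with a median log2 fold change of 0.63. CCN2, connective tissue growth factor, had 115, 118 and 121 CPM in droplets and 548, 479 and 579 CPM at 48 h (log2 fold change 2.18, SE 0.082, edgeR adjusted p = 8.38e-14). ANKRD1, a nuclear ankyrin repeat protein, had 65.3, 69 and 65 CPM in droplets and 205, 169 and 227 CPM at 48 h (log2 fold change 1.59, SE 0.108, edgeR adjusted p = 5.45e-09). F3, tissue factor, had 75.4, 75 and 80.1 CPM in droplets and 277, 310.4 and 313 CPM at 48 h (log2 fold change 1.97, SE 0.078, edgeR adjusted p = 1.27e-13). The groups were far apart in all 3, with the highest droplet library below the lowest 48 h library. AXL, a receptor kinase, rose from 265, 261 and 273 CPM to 646, 670.0 and 693 CPM (log2 fold change 1.33, SE 0.0606, edgeR adjusted p = 2.75e-13), and WWC1, an upstream Hippo regulator, rose by 1.2. CCN2 shares its locus with a noncoding gene of the other strand.

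The promoters of CCN2 and ANKRD1 hold the hexamer GGAATG, the core of the site bound by TEAD, the DNA-binding partner of YAP, which is shown in capitals. In CCN2 (chr6:131951323-131951622, minus strand) it starts 169, 104 and 95 bases before the start.
CCN2: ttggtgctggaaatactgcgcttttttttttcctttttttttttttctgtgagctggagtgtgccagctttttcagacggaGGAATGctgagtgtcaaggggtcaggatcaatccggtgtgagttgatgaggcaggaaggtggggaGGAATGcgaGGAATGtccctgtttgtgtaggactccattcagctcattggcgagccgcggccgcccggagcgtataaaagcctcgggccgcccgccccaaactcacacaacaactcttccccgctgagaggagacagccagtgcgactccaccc
In ANKRD1 (chr10:90921038-90921337, minus strand) it starts 220 and 128 bases before the start.
ANKRD1: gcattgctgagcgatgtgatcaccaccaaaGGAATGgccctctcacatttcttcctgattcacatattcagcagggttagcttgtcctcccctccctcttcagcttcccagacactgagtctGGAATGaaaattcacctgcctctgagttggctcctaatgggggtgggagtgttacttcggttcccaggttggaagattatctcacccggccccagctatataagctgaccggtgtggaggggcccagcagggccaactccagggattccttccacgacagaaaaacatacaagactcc
GGAATG was present on either strand in 7 of the 21 YAP-TAZ targets with an entry (33.3%) in 14.1% of all 27305 promoters and in 11.2% of those of tested genes. The promoter table has no entry for CCN1.

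Targets of SRF and MRTF, the pair that couples actin polymerization to transcription of actin-binding proteins, also leaned up. Of 26 tested members 19 rose and 2 fell (TES and PDLIM5), with a median of 0.37. FLNC, an actin crosslinker, had 40.3, 43.6 and 39.1 CPM in droplets and 159, 159.8 and 192 CPM at 48 h (log2 fold change 2.05, SE 0.0854, edgeR adjusted p = 4.88e-13). LIMA1, an actin-bundling LIM protein, had 96.2, 92.9 and 93.4 CPM in droplets and 196, 215 and 227 CPM at 48 h (log2 fold change 1.17, SE 0.056, edgeR adjusted p = 4.88e-13). ACTB, beta-actin, had 2395, 2278 and 2539 CPM in droplets and 4058, 3828 and 4033 CPM at 48 h (log2 fold change 0.72, SE 0.0499, edgeR adjusted p = 1.51e-10). All 48 h libraries exceeded all droplet libraries in each. The tropomyosin genes TPM2 and TPM1 rose by 1.11 and 0.93, and FHL2 rose by 0.63 on the log2 scale. ACTA2, smooth muscle actin, was scarce and did not pass, at 2.02, 1.44 and 2.25 CPM in droplets and 1.64, 1.74 and 1.24 CPM at 48 h (log2 fold change -0.3, SE 0.229, edgeR adjusted p = 0.291). A CArG box was found in 7 of the 23 members with a promoter entry (30.4%), against 1.29% of all promoters and 1.07% of those of tested genes.

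TGF-beta and BMP targets held rises and falls. Of 23 tested, 9 rose and 6 fell (39.1% and 26.1%, against 25.8% and 23.6% of all tested genes). NOG, a BMP antagonist, had 35.3, 41.6 and 23.9 CPM in droplets and 88.8, 109 and 99 CPM at 48 h (log2 fold change 1.56, SE 0.196, edgeR adjusted p = 2.29e-05). The BMP-induced inhibitors of differentiation went the other way: ID1 had 39.6, 39.8 and 46.6 CPM in droplets and 26.6, 21.8 and 19.7 CPM at 48 h (log2 fold change -0.88, SE 0.101, edgeR adjusted p = 3.58e-07), and ID3 fell by 1.38. SMAD7, the inhibitory SMAD, rose by 0.59 on the log2 scale. The groups did not overlap for these 4 genes. Among feedback genes of MAPK signalling 5 of 17 rose (SPRY2, DUSP7, DUSP10, EPHA2 and LIF) and 8 fell: SPRY2 and DUSP7 rose by 0.68 and 0.77, while SPRED2, DUSP4 and SPRY1 changed by -0.83, -0.48 and -0.55 on the log2 scale. Of 12 EGFR family members and ligands 4 rose and 4 fell (33.3% each), with 2 falls left without droplet replicate 3. Log2 fold changes in this list ran from -2.1 to 0.99 with a median of -0.19, and 2 of the falls were at least 2-fold. HBEGF, a ligand of EGFR, had 50.1, 50.9 and 46.9 CPM in droplets and 99.1, 98.8 and 95.3 CPM at 48 h (log2 fold change 0.99, SE 0.0506, edgeR adjusted p = 1.64e-12), and EGFR itself rose by 0.37. MYC, a growth-promoting factor, had 67.3, 65.2 and 72.6 CPM in droplets and 147, 139 and 147 CPM at 48 h (log2 fold change 1.08, SE 0.0501, edgeR adjusted p = 3.54e-13), and CCND1, the G1 cyclin D1, had 581, 547 and 569.7 CPM in droplets and 880.1, 858 and 942 CPM at 48 h (log2 fold change 0.66, SE 0.0488, edgeR adjusted p = 4.66e-10). All MYC and CCND1 values at 48 h were above all droplet values.

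Integrins fell more often than they rose. Of 18 tested collagen receptors and integrin subunits 10 fell and 1 rose (ITGA3, which did not pass without droplet replicate 1), with a median log2 fold change of -0.47. ITGA1, the alpha subunit of a collagen-binding integrin, had 685, 743 and 625 CPM in droplets and 225, 266 and 235 CPM at 48 h (log2 fold change -1.5, SE 0.221, edgeR adjusted p = 9.78e-05). ITGA10, another collagen-binding alpha subunit, had 173, 170.1 and 131 CPM in droplets and 85.5, 72.5 and 71.8 CPM at 48 h (log2 fold change -1.04, SE 0.196, edgeR adjusted p = 0.000659). ITGA2, also collagen-binding, had 878, 958 and 919.8 CPM in droplets and 517, 796 and 651 CPM at 48 h (log2 fold change -0.49, SE 0.134, edgeR adjusted p = 0.00745). Droplet spheroids were the higher group in all of these without overlap. ITGB1, the shared beta subunit of these receptors, did not pass, at 1940.0, 1914 and 2039 CPM in droplets and 1964, 2086 and 1970.2 CPM at 48 h (log2 fold change 0.03, SE 0.0517, edgeR adjusted p = 0.649). Subunits of vitronectin and laminin receptors went down as well: ITGB3 changed by -0.96, ITGB4 by -0.65, ITGAV by -0.58 and ITGB8 by -0.57 on the log2 scale.

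Adhesion and protrusion genes moved less. Of 24 focal adhesion and invadopodium genes 9 rose and 5 fell (37.5% and 20.8%, against 25.8% and 23.6% of all tested genes). None changed by 2-fold, and the falls were in PARVA, TNS3, TES, SH3PXD2A and SH3PXD2B. TRIP6, a LIM protein of adhesions, had 18, 16.9 and 19.8 CPM in droplets and 31.1, 23.4 and 29.3 CPM at 48 h (log2 fold change 0.62, SE 0.101, edgeR adjusted p = 3.2e-05), and PXN, the adaptor paxillin, had 310.4, 308 and 311 CPM in droplets and 396, 391 and 398 CPM at 48 h (log2 fold change 0.35, SE 0.0423, edgeR adjusted p = 5.62e-07). NEDD9, a scaffold that relays integrin signals, had 27.3, 28 and 28 CPM in droplets and 36.3, 39.4 and 36.8 CPM at 48 h (log2 fold change 0.43, SE 0.0724, edgeR adjusted p = 3.73e-05). The invadopodium scaffolds went down: SH3PXD2A (TKS5) had 162, 159.9 and 179.7 CPM in droplets and 105, 111 and 123 CPM at 48 h (log2 fold change -0.57, SE 0.064, edgeR adjusted p = 2.34e-07), and SH3PXD2B (TKS4) fell by 0.82. Of 22 genes of Rac and Cdc42 protrusion 7 rose and 4 fell (31.8% and 18.2%, not far from the shares of all genes). Without droplet replicate 2 only 3 rose, and without 48 h replicate 2 there were 7 falls. Among formins and Rac activators DIAPH3 rose by 0.95 and DIAPH1 by 0.35, while the exchange factors TIAM1 and DOCK1 changed by -0.89 and -0.47 on the log2 scale. FSCN1, the filopodial bundler fascin, rose by 0.27 on the log2 scale.

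Among matrix metalloproteinases, 13 were tested, 5 fell (MMP9, MMP13, MMP15, MMP16 and MMP28) and 2 rose (MMP2 and MMP19, neither without droplet replicate 1). MMP13, collagenase-3, had 4.68, 4.83 and 2.97 CPM in droplets and 0.195, 0.751 and 0.694 CPM at 48 h (log2 fold change -2.96, SE 0.305, edgeR adjusted p = 6.12e-08). MMP16, a membrane-type enzyme related to MMP14, had 13.5, 12.4 and 11.8 CPM in droplets and 5.35, 5.92 and 5.35 CPM at 48 h (log2 fold change -1.18, SE 0.125, edgeR adjusted p = 8.96e-08), and MMP15, another membrane-type enzyme, had 11.6, 12.7 and 12.7 CPM in droplets and 8.9, 8.97 and 7.98 CPM at 48 h (log2 fold change -0.51, SE 0.1, edgeR adjusted p = 0.000204). MMP9, gelatinase B, fell by 1.0 on the log2 scale from 3.39 ± 0.405 CPM to 1.69 ± 0.316 CPM (SD, n = 3). None of these overlapped between the groups. MMP1, interstitial collagenase, did not pass at 362, 389 and 339.6 CPM in droplets and 305, 463 and 313 CPM at 48 h (log2 fold change -0.01, SE 0.18, edgeR adjusted p = 0.962). MMP2, gelatinase A, was scarce: it had 1.7, 1.72 and 2.36 CPM in droplets and 4.26, 2.82 and 2.38 CPM at 48 h and passed (log2 fold change 0.72, SE 0.232, edgeR adjusted p = 0.0138), but its edgeR adjusted p reached 0.156 among the alternatives. None of the membrane-type members that passed rose.

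The inhibitors and the plasminogen system shifted too. TIMP1 had 1226, 1204 and 1273 CPM in droplets and 934, 805 and 800.4 CPM at 48 h (log2 fold change -0.54, SE 0.108, edgeR adjusted p = 0.000547), and TIMP3 fell by 0.45. TIMP2, which also assists activation of MMP2 on the cell surface, had 673, 650.1 and 686 CPM in droplets and 833, 919.7 and 822 CPM at 48 h and rose (log2 fold change 0.36, SE 0.0526, edgeR adjusted p = 7.68e-06). TIMP4 rose by 1.17 on the log2 scale. Of 11 tested members of the plasminogen activator system 6 rose (4 without droplet replicate 1) and 2 fell (1 without 48 h replicate 3). The activators PLAU (urokinase) and PLAT rose, PLAU from 268, 259 and 294 CPM to 417, 373 and 434 CPM (log2 fold change 0.58, SE 0.0639, edgeR adjusted p = 1.72e-07) and PLAT by 0.44. SERPINE2, an inhibitor of these activators also called protease nexin-1, had 406, 505 and 265 CPM in droplets and 119, 142 and 111 CPM at 48 h and fell (log2 fold change -1.66, SE 0.243, edgeR adjusted p = 9.63e-05). Lysosomal cysteine proteases and cystatins went down only: 9 of 15 tested fell and none rose. CTSS had 32.2, 30.0 and 32.2 CPM in droplets and 10.1, 11.8 and 9.27 CPM at 48 h (log2 fold change -1.6, SE 0.133, edgeR adjusted p = 1.25e-08), CTSO changed by -1.5, CTSL by -0.78 and CTSF by -0.81, while CTSB did not pass at 378, 375 and 389 CPM in droplets and 362, 372 and 308 CPM at 48 h.

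The matrix lists each held rises and falls. Of 20 collagen chains 7 rose and 7 fell (35% each, against 25.8% higher and 23.6% lower of all tested genes). Of 23 laminins and matrix glycoproteins 5 rose and 10 fell (21.7% and 43.5%). Of 17 crosslinking and processing genes 6 rose and 8 fell (35.3% and 47.1%). COL12A1, a fibril-associated collagen, had 14.4, 18.5 and 15.4 CPM in droplets and 32.3, 44.7 and 50.8 CPM at 48 h (log2 fold change 1.39, SE 0.169, edgeR adjusted p = 9.81e-06), and COL1A1, a chain of collagen I, had 12.3, 12 and 13.8 CPM in droplets and 32.8, 23.5 and 29.4 CPM at 48 h (log2 fold change 1.18, SE 0.124, edgeR adjusted p = 2.55e-07). COL6A3 rose by 0.9 on the log2 scale. COL6A1, a chain of the same collagen VI molecule, had 794, 753 and 757 CPM in droplets and 462, 401 and 396 CPM at 48 h and fell (log2 fold change -0.87, SE 0.0945, edgeR adjusted p = 7.1e-07). The basement membrane chains COL4A5 and COL18A1 changed by -1.01 and -0.8 on the log2 scale. None of these genes overlapped between the groups. FN1, fibronectin, had 4008, 4165 and 4639.8 CPM in droplets and 2302, 2828 and 2307 CPM at 48 h (log2 fold change -0.78, SE 0.127, edgeR adjusted p = 0.00012), and LAMB1 and LAMA4 changed by -0.73 and -0.77. SPP1, osteopontin, fell to trace levels, from 1.98, 1.3 and 2.25 CPM to 0.0781, 0.329 and 0.446 CPM (log2 fold change -2.73, SE 0.521, edgeR adjusted p = 0.000163). Of the crosslinking and processing enzymes, LOXL4 had 126, 130.2 and 139.5 CPM in droplets and 189.7, 283 and 166 CPM at 48 h (log2 fold change 0.69, SE 0.177, edgeR adjusted p = 0.00585, but up to 0.0937 with only the 6 libraries fitted), P3H2 rose by 0.87 and PCOLCE by 1.1, while P4HB, a prolyl hydroxylase subunit and disulfide isomerase, fell by 0.74. The summed level of the 6 tested fibroblast markers of 10, which include collagen I chains, was 33.5 to 39.8 CPM in droplets and 44.0 to 54.1 CPM at 48 h, while PDPN, not among the 6, had no read in any library, and the markers' part in the collagen values was not tested.

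Mesenchymal and epithelial lists held both rises and falls, and the epithelial shares were near those of all genes. VIM, vimentin, rose by 0.6 on the log2 scale (2479, 2243 and 2678 CPM in droplets, 3834, 3831 and 3546 CPM at 48 h). SNAI2, the transcription factor SLUG, had 15.8, 13.6 and 15 CPM in droplets and 29, 32.4 and 38.1 CPM at 48 h (log2 fold change 1.16, SE 0.0976, edgeR adjusted p = 2.83e-09). TGFB2, a TGF-beta ligand, rose by 0.61 on the log2 scale. The mesenchymal list held 9 rises and 6 falls of 20 (45% and 30.0%, against 25.8% and 23.6% of all genes), and PRRX1 and ZEB1 changed by -1.67 and -0.25 on the log2 scale. KRT7, a simple epithelial keratin, had 82.2, 83.9 and 87.1 CPM in droplets and 191, 157 and 189 CPM at 48 h (log2 fold change 1.08, SE 0.0797, edgeR adjusted p = 1.18e-09), KRT19 rose by 0.55 and OCLN, the tight junction protein occludin, by 1.01. EPCAM and MAL2 changed by -0.93 and -1.22 on the log2 scale. The epithelial list held 6 rises and 7 falls of 23 (26.1% and 30.4%), and 4 falls without droplet replicate 2. CDH1, E-cadherin, stayed scarce at 0.396, 0.28 and 0.341 CPM in droplets and 0.781, 0.564 and 0.446 CPM at 48 h and did not pass (log2 fold change 0.83, SE 0.446, edgeR adjusted p = 0.13).

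Interferon-stimulated genes fell almost as a block. Of 46 tested, 41 were lower and 1 higher (STAT2), against 23.6% and 25.8% of all genes, with a median log2 fold change of -0.72. IFIT1, a sensor of uncapped viral RNA, had 105, 113 and 120.1 CPM in droplets and 64.6, 55.6 and 60.7 CPM at 48 h (log2 fold change -0.9, SE 0.06, edgeR adjusted p = 9.79e-11). ISG15, a ubiquitin-like modifier, had 75.5, 86 and 85.6 CPM in droplets and 46.6, 35.1 and 43.8 CPM at 48 h (log2 fold change -0.98, SE 0.0787, edgeR adjusted p = 1.69e-09). OASL, a relative of the oligoadenylate synthetases, had 110.0, 117 and 118 CPM in droplets and 44.4, 36.9 and 39.3 CPM at 48 h (log2 fold change -1.51, SE 0.0785, edgeR adjusted p = 1.88e-12). Every droplet library exceeded every 48 h library in these. MX1, RSAD2 and GBP2 changed by -1.2, -1.74 and -1.18 on the log2 scale, and the chemokine CXCL11 by -1.78. These are mostly changes of 2-fold or less: 10 of the 41 reached 2-fold.

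The promoters of IFIT1, ISG15 and CXCL10 are shown with the interferon-stimulated response element, GAAA repeated after any pair of bases, in capitals wherever it or its reverse complement occurs. In IFIT1 (chr10:89392373-89392672, plus strand) 2 matches lie on the opposite strand, their bases nearest the 5′ end being 116 and 103 bases before the start. IFIT1 overlaps LIPA on the opposite strand.
IFIT1: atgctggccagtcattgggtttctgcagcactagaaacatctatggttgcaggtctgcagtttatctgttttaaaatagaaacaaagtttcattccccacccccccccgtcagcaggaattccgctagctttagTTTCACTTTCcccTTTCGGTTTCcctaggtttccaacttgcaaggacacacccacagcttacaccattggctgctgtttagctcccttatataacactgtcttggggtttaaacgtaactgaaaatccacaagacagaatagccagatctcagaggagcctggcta
In ISG15 (chr1:1013247-1013546, plus strand) 2 overlapping matches start 113 and 107 bases before the start.
ISG15: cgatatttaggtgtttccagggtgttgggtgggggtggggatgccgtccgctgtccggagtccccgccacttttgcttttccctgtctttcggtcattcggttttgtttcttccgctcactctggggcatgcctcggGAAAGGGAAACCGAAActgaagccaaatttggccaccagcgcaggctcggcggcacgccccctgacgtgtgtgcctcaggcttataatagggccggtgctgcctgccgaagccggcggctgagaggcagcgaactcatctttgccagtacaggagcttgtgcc
In CXCL10 (chr4:76023448-76023747, minus strand) 1 match starts 221 bases before the start.
CXCL10: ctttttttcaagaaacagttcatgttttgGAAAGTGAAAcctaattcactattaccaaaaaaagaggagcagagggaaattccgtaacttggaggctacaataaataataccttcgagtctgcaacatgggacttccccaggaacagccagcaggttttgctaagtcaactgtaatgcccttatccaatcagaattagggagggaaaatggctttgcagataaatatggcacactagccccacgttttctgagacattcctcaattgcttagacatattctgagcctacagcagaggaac
The element was found in 23 of the 36 list members with a promoter entry (63.9%) in 3.65% of all 27305 promoters and in 2.96% of those of tested genes. The table has no entry for OASL.

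Antigen presentation genes fell with them. Of 26 tested, 24 were lower and 1 higher (TAP2, which did not pass without droplet replicate 1), with a median of -0.75. HLA-DRA, the alpha chain of the class II receptor HLA-DR, had 387, 387 and 413 CPM in droplets and 97.4, 78.1 and 74 CPM at 48 h (log2 fold change -2.25, SE 0.164, edgeR adjusted p = 1.04e-07). HLA-DPA1 and HLA-DPB1, a class II pair that overlap each other on opposite strands, changed by -1.46 and -1.6 on the log2 scale. HLA-B, a class I heavy chain, had 984, 984 and 1148 CPM in droplets and 672, 589 and 529 CPM at 48 h (log2 fold change -0.8, SE 0.104, edgeR adjusted p = 8.31e-06), and HLA-C fell by 0.62. Among the members named the class II genes had the larger falls, a difference that was not tested. HLA genes are similar in sequence and reads may be shared between them. Leukocytes include the cells best known for class II expression. Leukocyte markers present in all 6 libraries included CD68 (86.3 to 111 CPM), CD14 (11 to 29.5 CPM) and LYZ (3.15 to 14.1 CPM). Another marker, PTPRC, had only 0.595 to 1.02 CPM. Among those with no read in any of the 6 were CD3E, MS4A1, FCGR3A and TYROBP. The summed level of the 6 that were tested was 144 to 149.7 CPM in droplets and 105 to 131 CPM at 48 h. CD14 and LYZ were the 2 members that fell. The libraries are of the MDA-MB-231 line, and the part of leukocyte transcripts in the class II values was not tested.

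Inflammatory genes fell with more spread between libraries. Of 34 NF-kB and cytokine genes 17 were lower and 2 higher (IL11 and LIF), with a median of -0.78. CXCL1, a neutrophil chemokine, had 129, 163 and 96.4 CPM in droplets and 42.2, 64.7 and 34.2 CPM at 48 h (log2 fold change -1.46, SE 0.404, edgeR adjusted p = 0.00925), and CX3CL1, fractalkine, had 16.5, 17.1 and 12.1 CPM in droplets and 3.94, 3.94 and 4.01 CPM at 48 h (log2 fold change -1.94, SE 0.169, edgeR adjusted p = 7.98e-09). Neither overlapped between the groups. CXCL8, interleukin-8, had 564, 716 and 392 CPM in droplets and 232, 419 and 200.2 CPM at 48 h and missed the threshold (log2 fold change -0.97, SE 0.394, edgeR adjusted p = 0.0572). It passed in 6 of 13 alternatives, and 1 of its 48 h values exceeded the lowest droplet value. Droplet replicate 2 and 48 h replicate 2 were the highest of their groups for CXCL8 and for the summed list, which held 3611, 4206 and 2961 CPM in droplets and 2194, 2827 and 1926 CPM at 48 h. Without 48 h replicate 2 the list held 22 falls, without 48 h replicate 1 it held 13, and with no filter on low counts 26. CCL20 and CSF3 changed by -2.03 and -1.6 on the log2 scale. LIF, a cytokine of the IL-6 family, went against the list with 52.6, 47.6 and 49.8 CPM in droplets and 87.5, 89.9 and 87.1 CPM at 48 h (log2 fold change 0.82, SE 0.0557, edgeR adjusted p = 1.28e-10).

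**Figure D2:**
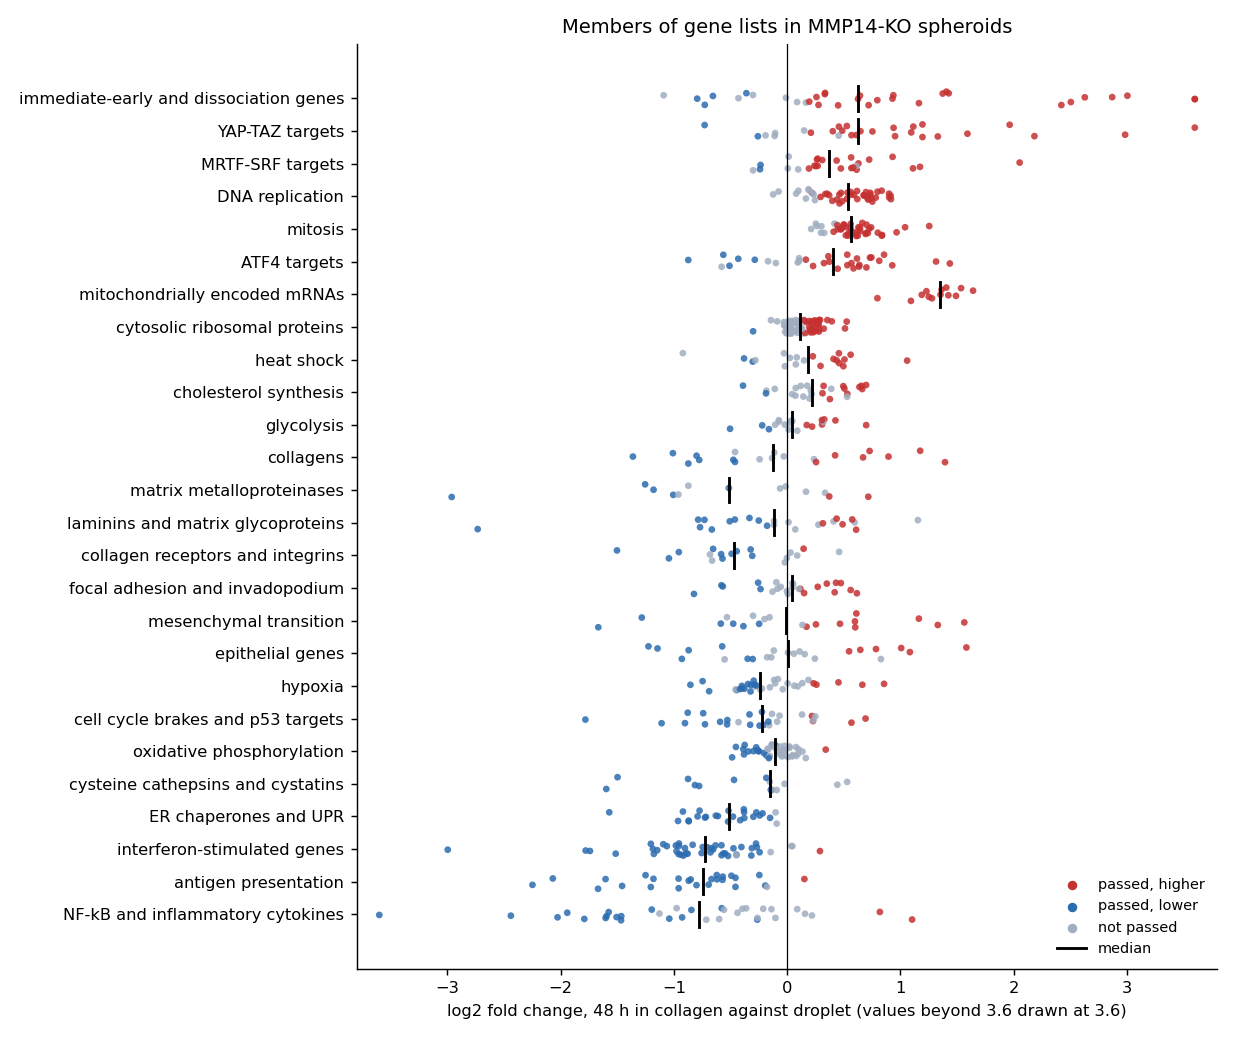
Log2 fold change at 48 h against droplet of every tested member of 26 gene lists in MMP14-KO spheroids. Each point is a gene, red where it passed and rose, blue where it passed and fell, grey where it did not pass, and the black bar is the list's median, which runs from -0.78 in inflammatory genes to 1.35 in mitochondrially encoded mRNAs.

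Cell cycle genes were higher at 48 h than in droplets. Of 45 DNA replication genes 35 rose and none fell, with a median of 0.53, and none reached 2-fold. MCM2, a subunit of the replicative helicase, had 40.1, 39.6 and 42.1 CPM in droplets and 64.7, 52.2 and 66.5 CPM at 48 h (log2 fold change 0.59, SE 0.114, edgeR adjusted p = 0.000411). CDT1, the factor that loads this helicase, had 9.83, 11.1 and 11.1 CPM in droplets and 21.1, 17.8 and 21.7 CPM at 48 h (log2 fold change 0.91, SE 0.113, edgeR adjusted p = 8.72e-07). GINS4, a helicase cofactor, had 45.4, 47.3 and 47 CPM in droplets and 85.3, 82.9 and 95.6 CPM at 48 h (log2 fold change 0.92, SE 0.0846, edgeR adjusted p = 2.63e-08). In all 3 genes the groups were apart, and 48 h replicate 2 was the lowest of its group. MCM10, PRIM1, UHRF1 and ORC6 rose by 0.8, 0.9, 0.9 and 0.84 on the log2 scale. CCNE2, cyclin E2, did not pass, at 17.4, 15.4 and 17.7 CPM in droplets and 14.9, 13.4 and 18 CPM at 48 h (log2 fold change -0.12, SE 0.128, edgeR adjusted p = 0.453).

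Mitosis genes rose as well. Of 43 tested, 36 rose and none fell, with a median of 0.57. CDC20, an activator of the anaphase-promoting complex, had 59.8, 47.4 and 64.8 CPM in droplets and 141, 120.1 and 149.5 CPM at 48 h (log2 fold change 1.26, SE 0.127, edgeR adjusted p = 1.29e-06). AURKB, a kinase of the chromosomal passenger complex, had 20.6, 17.5 and 25.5 CPM in droplets and 45.3, 40.3 and 45.5 CPM at 48 h (log2 fold change 1.04, SE 0.153, edgeR adjusted p = 4.72e-05). PLK1, a kinase of mitotic entry, had 53.5, 40.5 and 63 CPM in droplets and 87.6, 73.3 and 94.5 CPM at 48 h (log2 fold change 0.7, SE 0.149, edgeR adjusted p = 0.00133), and its lowest 48 h library was closer to its highest droplet library than in CDC20. KIF23, TPX2, ANLN and BUB1 rose by 0.97, 0.84, 0.84 and 0.8, and CCNB1, cyclin B1, by 0.69 on the log2 scale. KIF20A did not pass at 81.4, 57.3 and 93.7 CPM in droplets and 92.7, 83.4 and 101 CPM at 48 h. Droplet libraries differed among themselves, with summed levels of the list of 3399.5 in replicate 1, 2781 in replicate 2 and 3930.0 CPM in replicate 3. Without droplet replicate 2, the lowest, 28 members rose in place of 36.

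Promoters of 3 of these genes are shown for the elements that time replication and mitosis genes. MCM2 (chr3:127598161-127598460, plus strand) and CDT1 (chr16:88803539-88803838, plus strand) are shown with E2F sites in capitals, searched as TTTCCCGC, TTTCGCGC, TTTGCCGC and TTTGGCGC on both strands.
MCM2: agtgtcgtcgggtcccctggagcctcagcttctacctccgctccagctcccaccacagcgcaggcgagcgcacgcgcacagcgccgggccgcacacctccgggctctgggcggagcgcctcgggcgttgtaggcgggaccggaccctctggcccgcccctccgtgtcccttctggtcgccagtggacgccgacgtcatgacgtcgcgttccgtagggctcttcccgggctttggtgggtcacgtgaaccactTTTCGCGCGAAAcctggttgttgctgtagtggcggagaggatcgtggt
CDT1: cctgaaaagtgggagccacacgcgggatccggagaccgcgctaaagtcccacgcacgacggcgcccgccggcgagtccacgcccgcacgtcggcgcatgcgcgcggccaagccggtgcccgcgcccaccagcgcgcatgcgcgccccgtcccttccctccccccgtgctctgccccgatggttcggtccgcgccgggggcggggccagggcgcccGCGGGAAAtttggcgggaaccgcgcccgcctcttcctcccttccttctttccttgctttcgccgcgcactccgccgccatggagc
In MCM2 a match on each strand overlaps just after the start, and in CDT1 the match on the opposite strand has its base nearest the 5′ end 35 bases before the start. PLK1 (chr16:23678639-23678938, plus strand) is shown with a cell cycle homology region, TTTGAA, 29 bases before the start and a CCAAT box 73 bases before it.
PLK1: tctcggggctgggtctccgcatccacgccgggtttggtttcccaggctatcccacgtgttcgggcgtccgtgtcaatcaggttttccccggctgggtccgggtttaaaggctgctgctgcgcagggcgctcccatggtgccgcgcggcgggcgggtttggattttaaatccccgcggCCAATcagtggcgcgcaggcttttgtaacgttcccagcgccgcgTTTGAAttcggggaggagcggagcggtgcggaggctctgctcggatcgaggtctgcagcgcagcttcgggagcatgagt
E2F sites were found in 22 of the 38 replication genes with an entry (57.9%), 3.33% of all promoters and 5.26% of those of tested genes. TTTGAA was found in 25 of 36 mitosis genes (69.4%), 15.4% of all promoters and 10.2% of those of tested genes, and CCAAT in 28 of 36 (77.8%), 35.7% and 36.5%.

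The list of cell cycle brakes and p53 targets leaned down. Of 27 tested members 15 fell and 4 rose (CDKN2D, SESN2, BAX and DDB2, with 2 left without 48 h replicate 1). GDF15, a stress cytokine, had 51.5, 62.6 and 36.2 CPM in droplets and 13.2, 17.9 and 12.6 CPM at 48 h (log2 fold change -1.78, SE 0.284, edgeR adjusted p = 0.000187). TP53I3, a p53-induced oxidoreductase, had 41.9, 43.4 and 41.6 CPM in droplets and 21.9, 17.2 and 19.6 CPM at 48 h (log2 fold change -1.11, SE 0.099, edgeR adjusted p = 9.24e-09). CCNG2, a cyclin of quiescent cells, had 190.1, 187 and 189 CPM in droplets and 103, 111 and 94.2 CPM at 48 h (log2 fold change -0.88, SE 0.0991, edgeR adjusted p = 1.52e-06). CDKN2C, the CDK4 and CDK6 inhibitor p18, changed by -0.72 and CDKN1B, p27, by -0.24 on the log2 scale. The first 3 genes separated the groups fully. MDM2, the p53 antagonist and itself a p53 target, did not pass at 44, 40.4 and 46.4 CPM in droplets and 49.5, 44.9 and 49 CPM at 48 h.

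Nearly all measured genes of protein folding in the endoplasmic reticulum fell. Of 25 chaperones and unfolded protein response genes 23 fell and none rose, with a median of -0.52. HSPA5, the chaperone BiP, had 1578, 1597 and 1710.3 CPM in droplets and 1108, 1262 and 1045 CPM at 48 h (log2 fold change -0.52, SE 0.0731, edgeR adjusted p = 4.94e-06). PDIA4, a disulfide isomerase, had 435, 439 and 458 CPM in droplets and 229, 232 and 222 CPM at 48 h (log2 fold change -0.96, SE 0.0622, edgeR adjusted p = 6.05e-11). CALR, calreticulin, had 1858, 1866 and 2014 CPM in droplets and 1127, 1037 and 979 CPM at 48 h (log2 fold change -0.87, SE 0.0631, edgeR adjusted p = 3.64e-10). DNAJC3 and DNAJB9, cochaperones of BiP, changed by -0.92 and -0.87 on the log2 scale, and HSP90B1 by -0.79. No 48 h library reached a droplet library in any of these.

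Amino acid and heat shock genes leaned up instead. Of 32 targets of ATF4, the factor of the amino acid response, 21 rose and 5 fell (SLC1A4, VLDLR, CEBPB, WARS1 and ATF5), with a median of 0.41. PSAT1, an enzyme of serine synthesis, had 35.6, 31.1 and 34.1 CPM in droplets and 91.8, 90.5 and 90.5 CPM at 48 h (log2 fold change 1.44, SE 0.0637, edgeR adjusted p = 1.97e-13). ASNS, asparagine synthetase, had 20.9, 13.9 and 19 CPM in droplets and 47.8, 43.2 and 42.6 CPM at 48 h (log2 fold change 1.32, SE 0.128, edgeR adjusted p = 2.5e-07). SLC7A5, a transporter of large neutral amino acids, had 192, 173 and 204 CPM in droplets and 333, 312 and 356 CPM at 48 h (log2 fold change 0.81, SE 0.0753, edgeR adjusted p = 1.99e-08). ATF4 mRNA itself did not pass, at 246, 257 and 245 CPM in droplets and 282, 268 and 255 CPM at 48 h (log2 fold change 0.11, SE 0.0543, edgeR adjusted p = 0.112), and ATF5 fell by 0.87. Of 20 heat shock genes 10 rose and 2 fell (DNAJA1 and BAG3): HSP90AA1 had 1481, 1429 and 1547 CPM in droplets and 2185, 1924 and 2183 CPM at 48 h (log2 fold change 0.5, SE 0.0711, edgeR adjusted p = 5.37e-06) and HSPD1 rose by 0.51, whereas HSPA1A, the classic heat-inducible gene with a near-identical copy, did not pass at 94.6, 105 and 87.9 CPM in droplets and 113, 96.8 and 110.0 CPM at 48 h. MT1E, a metallothionein with close paralogs, had 11.1, 11.7 and 14.3 CPM in droplets and 29.5, 27.1 and 29.5 CPM at 48 h (log2 fold change 1.21, SE 0.108, edgeR adjusted p = 1.18e-08). Of 72 ribosomal protein genes 31 rose and 1 fell (18 and 3 without 48 h replicate 1), with a median of only 0.12: RPSA rose by 0.53 and RPS2 by 0.51, and RPS4X fell by 0.3 on the log2 scale.

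Mitochondrially encoded mRNAs rose in 13 of 13, 12 of them at least 2-fold, with a median of 1.35. MT-CYB, cytochrome b, had 765, 388 and 639 CPM in droplets and 2157, 1852 and 1584 CPM at 48 h (log2 fold change 1.64, SE 0.217, edgeR adjusted p = 3.79e-05). MT-CO1, a cytochrome oxidase subunit, had 4239, 2427 and 3722 CPM in droplets and 8686, 8358 and 6647 CPM at 48 h (log2 fold change 1.19, SE 0.193, edgeR adjusted p = 0.000201). MT-ND2, a complex I subunit, had 1091, 570.3 and 954 CPM in droplets and 2651, 2677 and 2259 CPM at 48 h (log2 fold change 1.54, SE 0.19, edgeR adjusted p = 1.9e-05). Droplet replicate 2 was the lowest in all 3 and 48 h replicate 3 the lowest of its group. With each of the 6 libraries left out in turn all 13 members still passed, but with only the 6 libraries and a replicate block 8 did. Nuclear-encoded subunits of the same respiratory complexes did not follow: of 45 tested, 16 fell and 1 rose (NDUFV1, with 3 others added without 48 h replicate 2), with a median of -0.1. NDUFA2 had 38.1, 40.0 and 36.3 CPM in droplets and 31, 25.1 and 25.5 CPM at 48 h (log2 fold change -0.49, SE 0.0828, edgeR adjusted p = 4.71e-05) and SDHC fell by 0.39.

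Hypoxia, glycolysis and lipid lists each held rises and falls. Of 33 hypoxia genes 14 fell and 5 rose (VEGFA, STC2, INSIG2, MAFF and JMJD6, with 3 left without 48 h replicate 2), with a median of -0.24. CA12, a carbonic anhydrase, changed by -0.75 with an edgeR adjusted p that reached 0.0741 with a library left out, and ANGPTL4 fell by 0.85 on the log2 scale. VEGFA, the angiogenic factor, had 527, 479.9 and 524 CPM in droplets and 677, 791 and 628 CPM at 48 h and rose (log2 fold change 0.45, SE 0.0904, edgeR adjusted p = 0.000405). NDRG1 had 1325, 1321 and 1261 CPM in droplets and 866, 1309 and 679 CPM at 48 h and did not pass (log2 fold change -0.45, SE 0.228, edgeR adjusted p = 0.12), and 48 h replicate 2 lay within the droplet range. Of 20 glycolysis genes 7 rose and 3 fell (LDHA, PFKL and PKM): ENO2 had 115, 103 and 107 CPM in droplets and 181, 193 and 153 CPM at 48 h (log2 fold change 0.7, SE 0.078, edgeR adjusted p = 3.57e-07), SLC2A1, the glucose transporter GLUT1, rose by 0.31 and PFKL fell by 0.5. Of 25 cholesterol genes 10 rose and 2 fell (SC5D and TM7SF2, 1 without 48 h replicate 2). DHCR7, the last enzyme of one branch of the pathway, had 32.2, 35.3 and 31 CPM in droplets and 59.8, 42 and 54.1 CPM at 48 h (log2 fold change 0.66, SE 0.12, edgeR adjusted p = 0.000214), and EBP, a sterol isomerase, rose by 0.66. Of 24 genes of fatty acid synthesis and lipid storage 5 rose and 7 fell, with a median of 0.05. These shares, 20.8% and 29.2%, were near those of all tested genes, 25.8% and 23.6%. MGLL, which releases fatty acids from monoacylglycerol, had 24.4, 25.2 and 20.2 CPM in droplets and 49.3, 59.5 and 57.2 CPM at 48 h (log2 fold change 1.25, SE 0.0894, edgeR adjusted p = 5.4e-10), and PLIN2, a lipid droplet coat protein, fell by 0.75.

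Of 13 tested luminal breast epithelium markers 6 fell and 1 rose (KRT19), with a median of -0.41. TFF1, a trefoil peptide of secretory epithelium, had 11.7, 13.2 and 13.8 CPM in droplets and 3.91, 3.43 and 3.32 CPM at 48 h (log2 fold change -1.85, SE 0.224, edgeR adjusted p = 2.05e-06). Its relative TFF3 had 15.9, 17.7 and 15.5 CPM in droplets and 7.07, 3.71 and 4.41 CPM at 48 h (log2 fold change -1.67, SE 0.161, edgeR adjusted p = 2.91e-08). Outside that list AQP3, a water and glycerol channel, had 67.6, 80.9 and 46.1 CPM in droplets and 19.2, 17.4 and 16.6 CPM at 48 h (log2 fold change -1.87, SE 0.261, edgeR adjusted p = 6.1e-05). LYZ, lysozyme, fell by 1.96 on the log2 scale. The groups did not overlap in these genes. Among replication-dependent histones, whose mRNAs mostly lack a polyA tail, 6 of 16 tested fell and 1 rose (H2AC11, not without droplet replicate 1), with H2AC6 at 63.2, 65 and 54.5 CPM in droplets and 29.6, 30.1 and 26.9 CPM at 48 h (log2 fold change -1.08, SE 0.0806, edgeR adjusted p = 5.52e-10).

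How the 48 h state was reached was read from the 24 h libraries of the same genotype. This comparison shares the 48 h libraries with the one above. Far fewer genes separated 48 h from 24 h: 353 were higher at 48 h (2.07% of 17030) and 295 lower (1.73%). The total of 648 was 373, 324 and 342 without 24 h replicates 1, 2 and 3 and 400 without 48 h replicate 3, and with scaling by library size alone 44.2% of the calls were higher in place of 54.5%. Immediate-early genes mostly differed in 1 direction: 20 of 33 were lower at 48 h than at 24 h and 1 was higher (IER5). ATF3 had 209, 249 and 261 CPM at 24 h, against 52, 41 and 47.9 CPM at 48 h (log2 fold change -2.35, SE 0.12, edgeR adjusted p = 5.64e-08). FOSB had 363, 360.3 and 409 CPM at 24 h (log2 fold change -1.66, SE 0.0997, edgeR adjusted p = 5.64e-08), and NR4A1 and EGR3 changed by -1.7 and -1.48 on the log2 scale. OSR2, a zinc-finger factor, had 8.96, 8.66 and 10.2 CPM at 24 h (log2 fold change -1.52, SE 0.169, edgeR adjusted p = 7.12e-06). Their 48 h levels thus stood between the droplet and the 24 h level, apart from EGR3, which ended below its droplet level.

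Mitosis genes did the reverse. Of 43 members 41 were higher at 48 h than at 24 h and none was lower. PLK1 had 24.1, 24 and 22.8 CPM at 24 h, under its droplet level of 53.5, 40.5 and 63 CPM, and 87.6, 73.3 and 94.5 CPM at 48 h (log2 fold change 1.85, SE 0.159, edgeR adjusted p = 1.14e-05). CCNB1 had 126, 93.8 and 145 CPM in droplets, 56.3, 58.3 and 63.9 CPM at 24 h and 207, 169 and 213 CPM at 48 h (log2 fold change 1.72, SE 0.157, edgeR adjusted p = 2.74e-05). KIF20A had 23.2, 27.6 and 25.5 CPM at 24 h (log2 fold change 1.86, SE 0.171, edgeR adjusted p = 2.82e-05), after which its 48 h level did not pass against droplets. PIF1, a DNA helicase, and GAS2L3, a cytoskeletal linker, were higher by 1.99 and 1.56 on the log2 scale. Replication genes had no member higher at 48 h than at 24 h and 12 lower (24 with no filter on low counts). CCN1, ANKRD1 and the interferon gene ISG15 did not pass between 24 h and 48 h, with 1198, 1295 and 1440.3 CPM, 184, 199 and 215 CPM and 44.7, 46.1 and 43.7 CPM at 24 h.

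**Figure D3:**
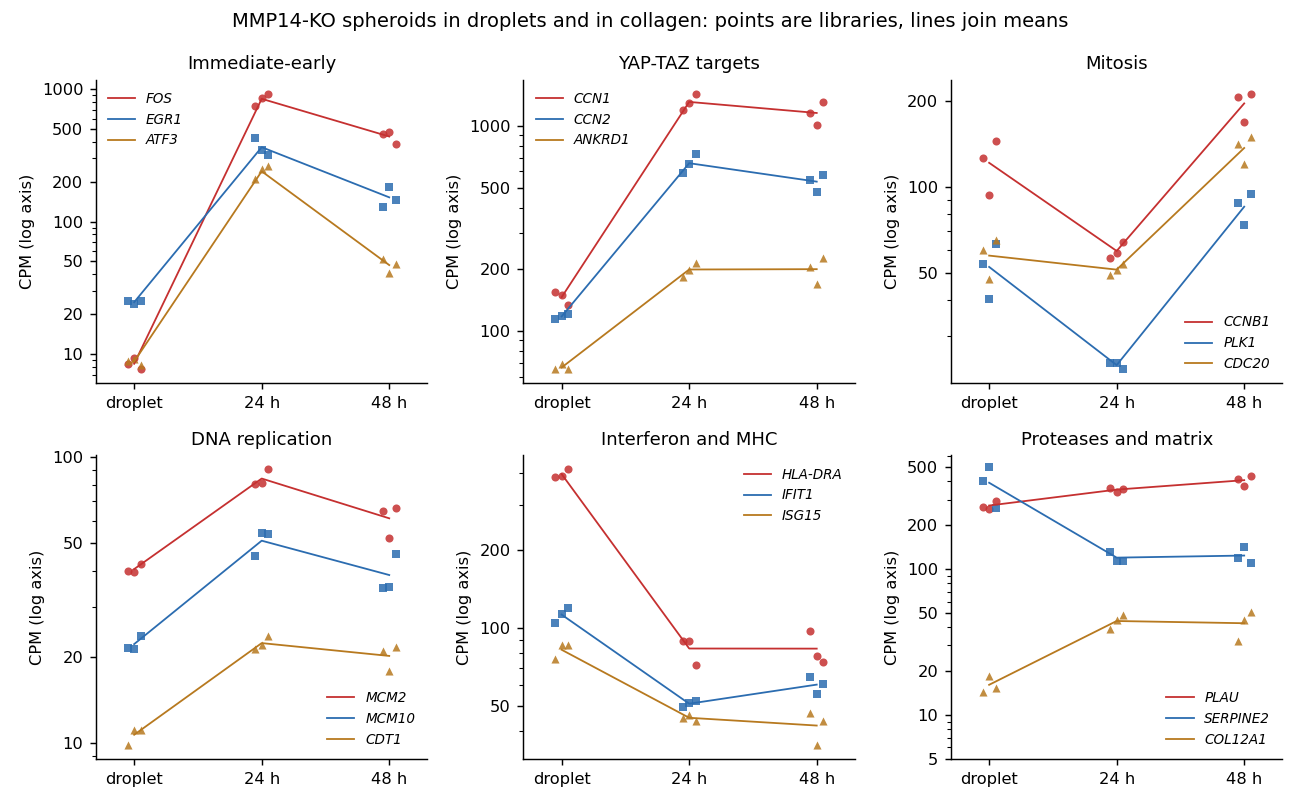
CPM (log axis) of 18 genes in MMP14-KO spheroids in droplets, at 24 h and at 48 h in collagen. Points are libraries (3 per group) and lines join group means. Of the 3 conditions, the immediate-early genes shown are highest at 24 h (ATF3 8.77, 239.7 and 46.9 CPM). Mitosis genes are lowest at 24 h (PLK1 52.3, 23.6 and 85.1 CPM), and interferon and MHC genes are down by 24 h.

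Whether the response depends on MMP14 status was asked with the interaction of genotype and condition, which uses the 6 libraries above and the 6 of the Wildtype line in droplets and at 48 h. The response of MMP14-KO spheroids was higher than that of Wildtype spheroids in 682 genes (4% of 17030) and lower in 474 (2.78%). These counts moved with single libraries: the total of 1156 was 316 without Wildtype droplet replicate 1, 458 without Wildtype droplet replicate 2, 1977 without Wildtype droplet replicate 3, 394 without MMP14-KO droplet replicate 3, 707 without MMP14-KO droplet replicate 1, 337 without Wildtype 48 h replicate 3 and 764 without Wildtype 48 h replicate 2. With scaling by library size alone, 73.9% of the calls were higher in place of 59%, with no filter 52.4% and with the DESeq2 Wald test 47.4%. The genes named in the next paragraphs, apart from MMP14, passed in the interaction under all 17 alternatives run.

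Some genes went in opposite directions. NEDD9, the integrin scaffold, had 51.1, 45.4 and 47.4 CPM in Wildtype droplets and 32.3, 35 and 33.5 CPM at 48 h, a log2 fold change of -0.51, against the rise of 0.43 in MMP14-KO spheroids (interaction 0.94, SE 0.101, edgeR adjusted p = 7.25e-05). TRIML2 changed by -0.46 in Wildtype and 0.73 on the log2 scale in MMP14-KO spheroids (interaction 1.19, SE 0.135, edgeR adjusted p = 9.57e-05). Others fell less: BMF, a pro-apoptotic gene, changed by -1.71 in Wildtype and -0.55 in MMP14-KO spheroids (interaction 1.16, SE 0.137, edgeR adjusted p = 0.00016), and PDGFRB, a growth factor receptor, by -1.24 on the log2 scale in Wildtype but did not pass in MMP14-KO spheroids at -0.2 (interaction 1.04, SE 0.146, edgeR adjusted p = 0.000709). DNAJB2, a cochaperone, fell by 0.66 on the log2 scale in Wildtype and did not pass in MMP14-KO spheroids at -0.08 (interaction 0.58, SE 0.0817, edgeR adjusted p = 0.000781). CX3CL1 changed by -3.59 in Wildtype and -1.94 in MMP14-KO spheroids (interaction 1.65, SE 0.262, edgeR adjusted p = 0.0026), COL6A1 by -1.59 and -0.87 (interaction 0.72, SE 0.133, edgeR adjusted p = 0.00903), and SH3PXD2B by -1.5 and -0.82 on the log2 scale (interaction 0.68, SE 0.121, edgeR adjusted p = 0.00515).

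Other genes rose less in MMP14-KO spheroids. CCN2 had 86.1, 82.2 and 86.7 CPM in Wildtype droplets and 675, 684 and 801 CPM at 48 h, a log2 fold change of 3.08, against 2.18 (interaction -0.9, SE 0.112, edgeR adjusted p = 0.000248). AXL rose by 1.71 in Wildtype and 1.33 on the log2 scale in MMP14-KO spheroids (interaction -0.38, SE 0.0842, edgeR adjusted p = 0.0131). G0S2, an inhibitor of lipolysis, had 44.6, 51 and 57.2 CPM in Wildtype droplets and 196, 220.2 and 240.1 CPM at 48 h, a log2 fold change of 2.1. In MMP14-KO spheroids it had 93.2, 95.9 and 85.2 CPM in droplets and 191, 164 and 162 CPM at 48 h, a log2 fold change of 0.92 (interaction -1.18, SE 0.126, edgeR adjusted p = 9.79e-05). The metallothioneins MT2A and MT1E rose by 1.1 and 2.31 in Wildtype and by 0.26 and 1.21 in MMP14-KO spheroids (interactions -0.84 and -1.1 on the log2 scale, edgeR adjusted p = 0.000518 and 0.00081). The rise of MT2A in MMP14-KO spheroids alone had an edgeR adjusted p of up to 0.0635 with a library left out. PLAC8 and CDCA7L, the latter a MYC partner, had interactions of -0.86 and -0.79 (edgeR adjusted p = 9.79e-05 and 0.00016). The amino acid genes PSAT1 and SLC7A5 had interactions of -0.51 and -0.6 (edgeR adjusted p = 0.00507 and 0.00518), and AOX1 had -0.92 (edgeR adjusted p = 0.00191). CCNE2 rose by 0.97 on the log2 scale in Wildtype spheroids and was at -0.12, without passing, in MMP14-KO spheroids (interaction -1.09, SE 0.18, edgeR adjusted p = 0.00485).

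Only some gene lists are given for the interaction, to be read beside 4% of all tested genes with a higher response and 2.78% with a lower one. Of 28 YAP-TAZ targets 7 had a lower response in MMP14-KO spheroids and none a higher one. The count was 4 without Wildtype droplet replicate 1 and 12 with no filter on low counts. For DNA replication 10 of 45 were lower, 3 without that library, 16 without Wildtype droplet replicate 3 and 33 with no filter. For ribosomal proteins 31 of 72 were lower, 5 without that library, 55 without Wildtype droplet replicate 3 and 62 with no filter. Of interferon-stimulated genes 9 of 46 had a higher response, 6 without that library and 14 with no filter. Higher responses were also found in 6 of 20 collagen chains (2 lower) and 5 of 23 TGF-beta and BMP targets (1 lower). The same held for 5 of 25 cholesterol genes and 4 of 16 replication-dependent histones, with none lower. Without Wildtype droplet replicate 1 these counts of higher responses were 4, 1, 1 and 2. Mitosis genes gave none in either direction, with a median log2 fold change of 1.01 in Wildtype and 0.57 in MMP14-KO spheroids, but up to 9 were lower when a single library was left out (MMP14-KO droplet replicate 2) and 39 with no filter on low counts. The interaction of MMP14 itself was 0.44 (edgeR adjusted p = 0.0297). Its level fell by 0.5 on the log2 scale in Wildtype spheroids, and its interaction passed in 9 of 17 alternatives.

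**Figure D4:**
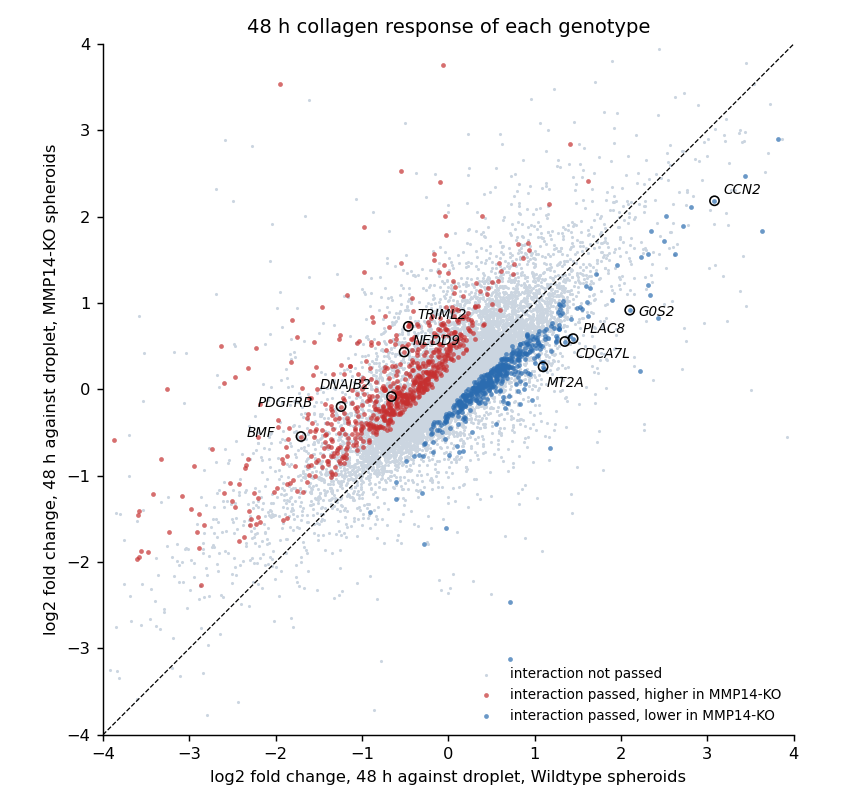
Log2 fold change at 48 h in collagen against droplet in Wildtype (x axis) and MMP14-KO spheroids (y axis) for 16953 of the 17030 tested genes, with 77 beyond the axes. Genes whose interaction passed are red (682 higher in MMP14-KO) or blue (474 lower), the 10 with the smallest adjusted p that reach 5 CPM are ringed and named, and the dashed line marks equal response.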

How the data were processed

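The series measured polyA RNA of 18 libraries, and 6 of them make up the main comparison. Per the submitters' processing notes, cutadapt 2.3, STAR 2.7.8a, RSEM 1.3.3 and DESeq2 1.42.0 were used with GRCh38, and the authors deposited 1 table of expected counts (RSEM gene-level estimates, all whole numbers as deposited) of 62714 rows. The sources used here do not give the annotation release or the strand setting. Of the rows, 4 reporter rows with a count of 0 were left out, and 20930 of 62710 genes have no symbol in the table. Coordinates, gene classes and overlaps come from GENCODE 29, to which 58274 genes matched.

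Genes were kept by filterByExpr (minimum count 10), leaving 17030. A single edgeR 4.0.16 quasi-likelihood model (R 4.3.3) with TMM scaling was fitted to the 6 groups (12 residual degrees of freedom), and p-values were adjusted by Benjamini-Hochberg per comparison, with a threshold of 0.05. Fold changes are log2 of 48 h over droplet, and SEs are derived from the F statistic. Counts of 15997 genes were also simulated for the 6 libraries and fitted without the other groups. That fit recovered 77.6% of 67 genes changed 1.5-fold, 98.5% of 67 changed 2-fold and 98.5% of 66 changed 4-fold. Of 15797 unchanged genes 18 were called. The changed genes were drawn from well-counted genes only and were far fewer than the genes called in the data. Recovery of scarce genes, and by the model of all 6 groups, was therefore not measured. The named genes are MMP14, the 12 largest rises and falls that reach 5 CPM and do not overlap, per gene list 3 fixed anchors and up to 6 largest changes that passed at 1 CPM or more, the 10 smallest adjusted p-values of the interaction, and the 5 largest rises and falls from 24 h to 48 h. Not every gene so chosen is printed, and some are not reported here. The genes and lists were chosen with earlier results of these data known. Promoter windows are from RefSeq (GRCh38.p14), with the first entry per symbol used. Alternatives covered scaling, the filter on low counts, DESeq2, the libraries fitted, a replicate block, glmTreat and each library left out.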

Additional observations from a re-analysis of the deposited data

Results flagged for a closer look

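The results listed here differed between the genotypes by a test of the difference itself, the interaction of genotype with 48 h in collagen against droplet (log2, MMP14-KO response minus Wildtype response, edgeR adjusted p under 0.05). Loss of MMP14 and other differences between the lines cannot be told apart in them. Adhesion, receptor and matrix genes with a higher response in MMP14-KO spheroids were NEDD9 (0.94), PDGFRB (1.04), CX3CL1 (1.65, a membrane-bound chemokine), SH3PXD2B (0.68) and COL6A1 (0.72). TRIML2 (1.19), BMF (1.16) and DNAJB2 (0.58) were higher as well. NEDD9 and TRIML2 were the 2 among these genes that rose in MMP14-KO and fell in Wildtype spheroids. The remaining 6 fell less in MMP14-KO spheroids or did not pass there.

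A lower response in MMP14-KO spheroids was found for the YAP-TAZ targets CCN2 (-0.90) and AXL (-0.38), for the metallothioneins MT2A (-0.84) and MT1E (-1.10), and for the amino acid genes PSAT1 (-0.51) and SLC7A5 (-0.60). PLAC8 (-0.86), G0S2 (-1.18), CDCA7L (-0.79), AOX1 (-0.92) and CCNE2 (-1.09) were lower too. All of these but CCNE2 rose in both genotypes. MMP14 (0.44) fell in Wildtype spheroids and is the targeted gene.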

How the results depend on the processing

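For MMP14-KO spheroids at 48 h against droplet, the counts of 4399 higher and 4018 lower genes stayed within 1.5 times under every alternative run on them, and of 191 named genes that passed, 187 passed under all 13. The exceptions are MMP2, LOXL4, CA12 and MT2A. A test against a 2-fold change (glmTreat) gave 196 higher and 128 lower genes, where 912 and 557 passed with an estimated change of at least 2-fold. MMP1 and ITGB1, which did not pass, changed sign with a library left out, from -0.25 to 0.10 for MMP1 and from -0.012 to 0.051 for ITGB1. Leaving out each library in turn gave 191 to 987 higher and 125 to 990 lower genes in the interaction (fewest without Wildtype droplet replicate 1, most without Wildtype droplet replicate 3), and 164 to 452 higher and 159 to 402 lower at 48 h against 24 h. With no filter on low counts the interaction had 1106 higher and 1004 lower genes and 48 h against 24 h had 621 lower. With library size alone the interaction had 304 lower genes. The DESeq2 Wald test gave 925 lower genes in the interaction and 473 lower at 48 h against 24 h. The cause of these shifts was not tested, beyond the fewer libraries or other genes that each alternative fits. Between the MMP14-KO 48 h and droplet groups, same-numbered replicates did not deviate together (correlations -0.031, 0.019 and 0.024 across genes, and not every library correlated best with its own number). The labels do not state that the numbers pair samples, so the reported fit has no block. The other groups were not checked for pairing. A fit with the replicate number as a block gave 4486 higher and 4100 lower genes in the main comparison, 990 and 848 in the interaction and 430 and 379 at 48 h against 24 h. Each of these counts was above that of the fit without a block. The libraries' depth sets a limit for scarce genes such as CDH1 and MMP2, where few counts stand behind each value.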
